A study of Apis mellifera with 18 samples.

Results

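ADAM10-like (gene model GB46342) and glutamyl aminopeptidase-like (GB42326) are both metallopeptidases, enzymes that cut proteins or peptides with the help of a bound metal ion, usually zinc. They are 2 of the 15314 gene models counted in the brains of artificially inseminated honeybee queens (Apis mellifera ligustica), and they were picked by their identifiers. Both belong to the 37 genes that the study lists as changed in the same direction in each of its 4 comparisons of semen or seminal fluid with controls. Their higher level after insemination was thus part of the choice, and it is described below without a test. The names are best matches in the annotation of the study, and no enzyme activity was measured. Both genes were far above the filter on low values, and both are among the 12052 gene models tested over all libraries.

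The data came from 2 experiments with 3 groups each and 18 libraries in all, with 3 libraries (replicates A, B and C) per group and 3 pooled brains per library. In Experiment 2 queens received 6 µl of seminal fluid, of semen, or of Hayes saline, a buffered salt solution that served as the control. In Experiment 1 queens received 6 µl of seminal fluid, 6 µl of semen pooled from about 10 males, or a mock insemination. In the mock insemination the instruments were used but no fluid was given. In both experiments the seminal fluid was pooled from many drones, spun to remove sperm and stored frozen, whereas semen was used at once. All queens, controls included, were grafted as larvae from a single colony, were virgins when inseminated, were exposed to CO2 for 1 min at 4 days after emergence, a day before the procedure, and were sedated with CO2 for it. Brains with the optic lobes were taken 24 h after insemination and cleared of gland tissue. Hayes saline was used only in Experiment 2 and mock insemination only in Experiment 1, so the kind of control and the experiment cannot be told apart. Since the queens came from a single colony, p values measure the spread between these pools and not the spread between colonies.

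ADAM10 is a membrane enzyme that releases the outer part of other membrane proteins, a step called shedding. In fruit flies and mammals it makes the first ligand-induced cut of the Notch receptor, and in mammals it also sheds neuronal adhesion molecules such as N-cadherin and the amyloid precursor protein. Glutamyl aminopeptidase, also called aminopeptidase A, is a membrane enzyme of the M1 family that removes acidic residues from the amino end of peptides, and in mammals it trims angiotensin. These roles are known from other animals, and those of the honeybee genes were not measured here.

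Libraries held 26636844 to 51745752 counts assigned to genes, with a median of 36062110. ADAM10-like received 1494 to 6217 counts per library and glutamyl aminopeptidase-like 4358 to 20644, for which counting error alone is 1.27% to 2.59% and 0.696% to 1.51% of the count. Levels are given as CPM, that is, counts brought to a common library total, after scaling with the trimmed mean of M values (TMM) over all 18 libraries, so that they are on a single scale. They are not corrected for transcript length, so levels of the 2 genes are not compared with each other. Replicate C of seminal fluid in Experiment 2 stood apart from its group in 2 other measures, with 8.90% of its counts in the most abundant gene, GB49544, against 0.949% and 0.840% in replicates A and B, and with the highest photoreceptor transcripts of all libraries. The main values that rest on this library are also given without it.

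ADAM10-like was higher in every pool that received seminal fluid or semen than in every control pool of the same experiment. In Experiment 2 its level was 81.0, 73.1 and 68.6 CPM in the seminal fluid pools and 90.2, 84.6 and 93.2 CPM in the semen pools, against 42.1, 46.2 and 46.0 CPM in the Hayes saline pools. In Experiment 1 its level was 175.9, 126.1 and 146.9 CPM in the seminal fluid pools and 162.6, 143.8 and 149.9 CPM in the semen pools, against 68.5, 76.8 and 62.8 CPM in the mock pools. The lowest inseminated pool of Experiment 2 was thus well above the highest Hayes saline pool, and the same held in Experiment 1 against mock insemination. The seminal fluid pools of Experiment 1 were the most spread, with an SD of 25.0 CPM around a mean of 149.6 CPM.

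Glutamyl aminopeptidase-like showed the same separation from controls with a smaller fold. In Experiment 2 its level was 410.7, 440.2 and 371.9 CPM in the seminal fluid pools and 358.6, 371.9 and 417.5 CPM in the semen pools, against 242.8, 259.0 and 258.2 CPM in the Hayes saline pools. In Experiment 1 its level was 259.0, 294.2 and 296.9 CPM in the seminal fluid pools and 263.7, 297.2 and 291.7 CPM in the semen pools, against 212.0, 191.5 and 180.6 CPM in the mock pools. No inseminated pool overlapped the controls of its own experiment, whereas the seminal fluid and semen pools overlapped each other in both experiments.

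**Figure D1:**
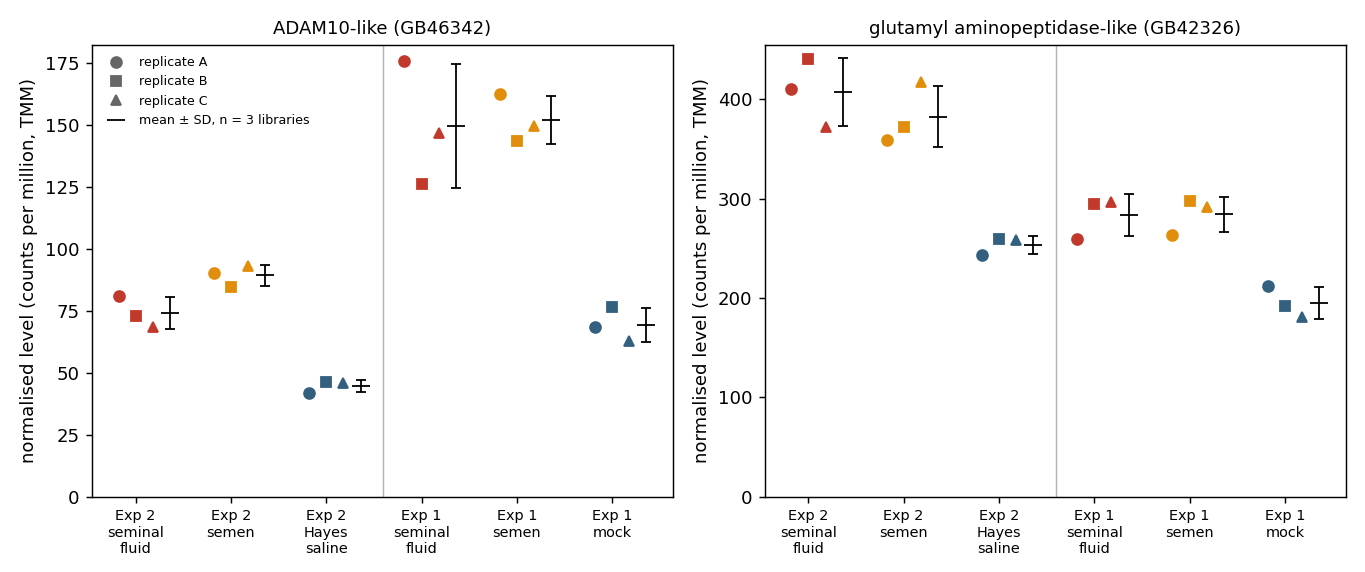
Normalised level (CPM, TMM over 18 libraries) of ADAM10-like on the left and glutamyl aminopeptidase-like on the right, with a symbol for each library of 3 pooled brains and the mean ± SD of 3 libraries beside it. Both genes lie above the controls of the same experiment in all inseminated pools, while ADAM10-like is lower and glutamyl aminopeptidase-like higher in Experiment 2 than in Experiment 1.

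The log2 fold changes of the following comparisons come from a fit of the 9 libraries of each experiment. For ADAM10-like the log2 fold change was 0.72 (SE 0.08) for seminal fluid against Hayes saline and 1.01 (SE 0.08) for semen against Hayes saline. It was 1.12 (SE 0.13) for seminal fluid against mock insemination and 1.13 (SE 0.13) for semen against mock insemination. The level was thus 1.65-fold and 2.01-fold that of Hayes saline in Experiment 2 and 2.17-fold and 2.18-fold that of mock insemination in Experiment 1.

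For glutamyl aminopeptidase-like the log2 fold change was 0.68 (SE 0.09) for seminal fluid and 0.61 (SE 0.09) for semen against Hayes saline. It was 0.55 (SE 0.12) for seminal fluid and 0.54 (SE 0.12) for semen against mock insemination. These values correspond to 1.60-fold, 1.52-fold, 1.47-fold and 1.45-fold levels. Without replicate C of seminal fluid in Experiment 2, the log2 fold change against Hayes saline was 0.78 for ADAM10-like and 0.74 for glutamyl aminopeptidase-like. The comparisons of an experiment share its control pools, so their values are not independent of each other.

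All 3 inseminated pools were above all 3 control pools for 2 of 2 genes in each of the 4 comparisons. Among all genes tested this held for 6.77% in seminal fluid against Hayes saline, 7.16% in semen against Hayes saline, 8.28% in seminal fluid against mock insemination and 6.34% in semen against mock insemination. The median log2 fold change of all genes tested was between -0.015 and -0.0061 in the comparisons against controls. The fold changes of ADAM10-like exceeded those of 98.1% to 99.4% of the genes tested, and those of glutamyl aminopeptidase-like exceeded 95.3% to 97.8%. Since the members were chosen for these comparisons, the shares are a description only. In bulk tissue, a change in the number of cells that use a gene and a change in the RNA per cell cannot be told apart.

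**Figure D2:**
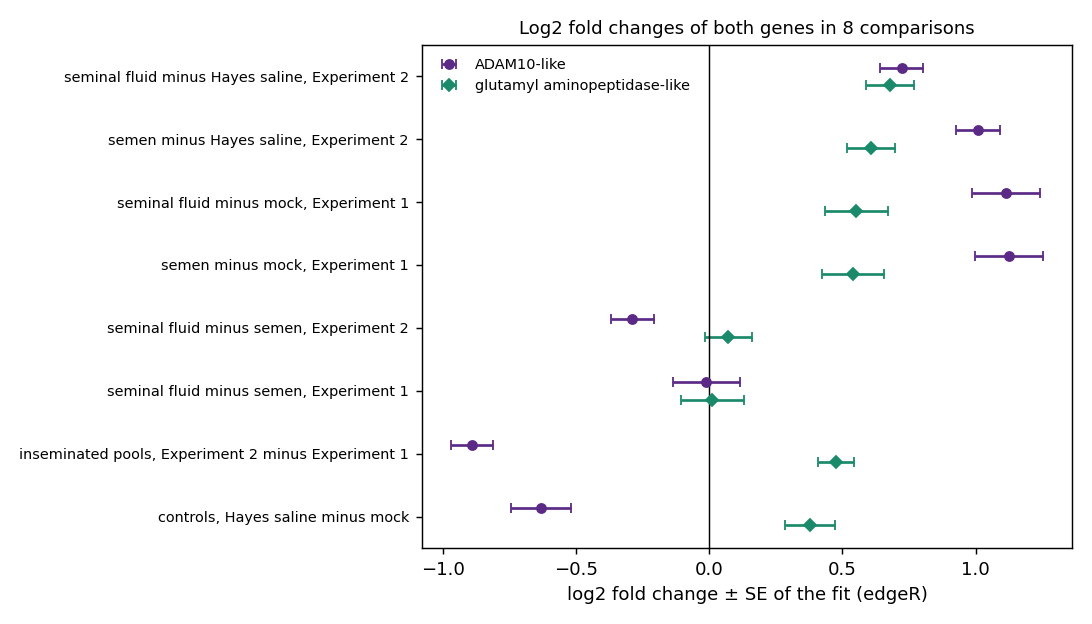
Log2 fold change (horizontal axis) with the SE of the edgeR fit for ADAM10-like (circles) and glutamyl aminopeptidase-like (diamonds) in 8 comparisons, the upper 4 of which are those against controls. ADAM10-like ranges between 0.72 and 1.13 against controls and glutamyl aminopeptidase-like between 0.54 and 0.68, and the genes lie on opposite sides of 0 in both comparisons of Experiment 2 with Experiment 1.

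Seminal fluid was then set against semen, a comparison that was not used to choose the genes. Both were given as 6 µl, so in semen the sperm took up part of the volume. Seminal fluid was pooled from many drones and had been frozen, whereas semen was used fresh. Sperm, dose of fluid, donors and freezing therefore cannot be told apart in this comparison. In Experiment 2 ADAM10-like averaged 74.2 ± 6.30 CPM with seminal fluid and 89.4 ± 4.36 CPM with semen (SD, n = 3 pools each). All 3 seminal fluid pools were below all 3 semen pools. The log2 fold change was -0.29 (SE 0.08, 95% interval -0.47 to -0.10), and the gene did not pass the 10% false discovery rate in edgeR's quasi-likelihood test (adjusted p = 0.229 over 11899 genes). DESeq2 gave an adjusted p of 0.0457 and an edgeR fit of only the pools compared gave 0.0960, so this call depended on the method. These methods also called more of all genes, 8.47% for DESeq2 and 10.2% for the fit of only the pools compared. Groups did not overlap, in either direction, for 28.5% of all genes in this comparison, and edgeR called 1 gene (0.0084%). Without replicate C of seminal fluid the log2 fold change was -0.23 (adjusted p = 0.283, edgeR).

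Glutamyl aminopeptidase-like averaged 407.6 ± 34.3 CPM with seminal fluid and 382.6 ± 30.9 CPM with semen in Experiment 2 (SD, n = 3 pools each), and the pools overlapped. Its log2 fold change of 0.071 (SE 0.09, 95% interval -0.13 to 0.27) did not pass the test (adjusted p = 0.693, edgeR). Without replicate C of seminal fluid the value was 0.13 (adjusted p = 0.461, edgeR).

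In Experiment 1 neither gene was separated between seminal fluid and semen. ADAM10-like averaged 149.6 ± 25.0 CPM with seminal fluid and 152.1 ± 9.59 CPM with semen, and its log2 fold change was -0.011 (SE 0.13, 95% interval -0.29 to 0.27, adjusted p = 0.997, edgeR). Glutamyl aminopeptidase-like averaged 283.4 ± 21.2 CPM with seminal fluid and 284.2 ± 17.9 CPM with semen, with a log2 fold change of 0.012 (SE 0.12, 95% interval -0.25 to 0.27, adjusted p = 0.997, edgeR). For ADAM10-like the seminal fluid pools lay on both sides of the semen pools. Groups did not overlap for 8.72% of all genes here. edgeR called 0 genes (0%), with 680 at an unadjusted p under 0.05, DESeq2 called 1 and limma-voom called 0.

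The difference between the experiments in the seminal fluid and semen contrast was tested as an interaction over all 18 libraries. It was -0.24 (SE 0.16, adjusted p = 0.476) for ADAM10-like and 0.10 (SE 0.13, adjusted p = 0.766) for glutamyl aminopeptidase-like in edgeR's quasi-likelihood test. No gene was called for this interaction, and 1751 had an unadjusted p under 0.05. Without replicate C of seminal fluid in Experiment 2 it was -0.22 (adjusted p = 0.508, edgeR) and 0.13 (adjusted p = 0.673, edgeR). The lower ADAM10-like level with seminal fluid in Experiment 2 is therefore not shown to differ from the value in Experiment 1. As a description, the log2 fold change against controls was lower in Experiment 2 by 0.38 (SE 0.16) for seminal fluid and by 0.14 (SE 0.16) for semen for ADAM10-like. For glutamyl aminopeptidase-like it was higher in Experiment 2 by 0.14 (SE 0.13) for seminal fluid and by 0.05 (SE 0.13) for semen. Without replicate C the differences for seminal fluid were -0.33 and 0.21.

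The 2 genes differed between the experiments in opposite directions. Over the inseminated pools, ADAM10-like was between 68.6 and 93.2 CPM in the 6 pools of Experiment 2 and between 126.1 and 175.9 CPM in the 6 pools of Experiment 1, with no overlap. The log2 fold change was -0.89 (SE 0.08, adjusted p = 2.37e-07, edgeR fit of 18 libraries). Glutamyl aminopeptidase-like was between 358.6 and 440.2 CPM in Experiment 2 and between 259.0 and 297.2 CPM in Experiment 1, again with no overlap. Its log2 fold change was 0.48 (SE 0.07, adjusted p = 1.49e-05, edgeR). Without replicate C of seminal fluid in Experiment 2, the log2 fold changes were -0.86 for ADAM10-like and 0.50 for glutamyl aminopeptidase-like. The experiments differed broadly, since 69.8% of 12052 genes were called in this comparison and 38.4% did not overlap. Pools are replicates within an experiment, so p values between experiments do not measure the spread between repeats of an experiment. Whatever differed between the experiments, such as time or batch, cannot be told apart from this contrast.

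The controls differed in the same directions. ADAM10-like averaged 44.8 ± 2.33 CPM with Hayes saline and 69.3 ± 7.06 CPM after mock insemination (SD, n = 3 pools each), with -0.63 as the log2 fold change (SE 0.11, edgeR adjusted p = 0.000471). Glutamyl aminopeptidase-like averaged 253.3 ± 9.11 CPM with Hayes saline and 194.7 ± 16.0 CPM after mock insemination, with 0.38 as the log2 fold change (SE 0.09, edgeR adjusted p = 0.00502). The controls did not overlap for either gene. Of all genes, 50.5% were called and 50.4% did not overlap between the controls.

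These values rest on the scaling between experiments. Without TMM, with library size alone, the median log2 fold change of all genes shifted by 0.56 in the inseminated pools and by 0.50 in the controls. The log2 fold change of ADAM10-like was then -0.31 (adjusted p = 0.00456, edgeR) in inseminated pools and -0.13 (adjusted p = 0.389, edgeR) in controls, where the call was lost. That of glutamyl aminopeptidase-like was 1.03 and 0.88. Relative to the median of all genes, ADAM10-like stood at -0.91 with TMM and -0.90 with library size alone in inseminated pools, and glutamyl aminopeptidase-like stood at 0.45 with both. In controls, ADAM10-like stood at -0.67 and glutamyl aminopeptidase-like at 0.34 relative to the median with both scalings, so the loss of the call went with the shift of all genes.

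The order of the group means also differed between the genes. ADAM10-like ran from semen of Experiment 1 through seminal fluid of Experiment 1, semen of Experiment 2, seminal fluid of Experiment 2 and mock insemination to Hayes saline. Neighbours in this order overlapped only between semen and seminal fluid of Experiment 1, and between seminal fluid of Experiment 2 and mock insemination. Glutamyl aminopeptidase-like ran from seminal fluid of Experiment 2 through semen of Experiment 2, semen of Experiment 1, seminal fluid of Experiment 1 and Hayes saline to mock insemination. Strictly, only seminal fluid and semen of the same experiment overlapped. However, the lowest seminal fluid pool of Experiment 1 (258.994 CPM) and the highest Hayes saline pool (258.987 CPM) were equal within counting error (1.17% and 0.895%). These 2 groups were thus not clearly separated.

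Of the variance of log2 CPM over the 18 libraries, 39.9% lay between experiments for ADAM10-like, 57.0% between groups of an experiment and 3.13% between pools of a group. For glutamyl aminopeptidase-like the shares were 36.5%, 58.2% and 5.36%. The medians over all genes tested were 47.3%, 13.8% and 33.8%, and the choice of the genes favoured a high share between groups. The shares were 39.0%, 58.5% and 2.50% for ADAM10-like and 32.2%, 62.8% and 4.96% for glutamyl aminopeptidase-like without replicate C of seminal fluid in Experiment 2.

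The ratio of the raw counts of the 2 genes within a library does not depend on scaling between libraries. It was 0.197, 0.166 and 0.184 ADAM10-like counts per glutamyl aminopeptidase-like count in the seminal fluid pools of Experiment 2 and 0.252, 0.228 and 0.223 in its semen pools, against 0.173, 0.179 and 0.178 in its Hayes saline pools. In Experiment 1 it was 0.679, 0.429 and 0.495 in the seminal fluid pools and 0.617, 0.484 and 0.514 in the semen pools, against 0.323, 0.401 and 0.348 in the mock pools. The semen pools of Experiment 2 were above both other groups, whereas its seminal fluid pools overlapped the Hayes saline pools. In Experiment 1 both inseminated groups were above mock insemination and overlapped each other.

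The ratio averaged 0.208 ± 0.0315 in the 6 inseminated pools of Experiment 2 and 0.536 ± 0.0932 in the 6 of Experiment 1 (SD), a log2 difference of -1.36, and all 6 pools of Experiment 2 were below all 6 of Experiment 1. A two-sided exact permutation test over the 12 pools gave p = 0.00216, the smallest that it can give, and 0.00866 after Benjamini-Hochberg adjustment over the 4 ratio comparisons tested. The levels of the 2 genes already separated these pools in opposite directions, so the ratio had to separate them too. This p was thus fixed by the levels above and adds no support of its own. The log2 difference was -1.33 without replicate C of seminal fluid in Experiment 2. ADAM10-like therefore made up a smaller part of the summed counts of both genes in the inseminated pools of Experiment 2 than in those of Experiment 1.

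The other 3 ratio comparisons had 3 pools against 3, for which an exact test cannot go below 0.1. Between controls it averaged 0.177 ± 0.00290 with Hayes saline and 0.357 ± 0.0398 after mock insemination (exact permutation p = 0.1, adjusted 0.133). Between seminal fluid and semen it averaged 0.183 ± 0.0157 and 0.234 ± 0.0153 in Experiment 2 (exact permutation p = 0.1, adjusted 0.133), a log2 difference of -0.36, or -0.37 without replicate C of seminal fluid. In Experiment 1 these averages were 0.534 ± 0.130 and 0.538 ± 0.0696 (exact permutation p = 0.9, adjusted 0.9). The Hayes saline and mock pools did not overlap, which again followed from the levels of the 2 genes. The seminal fluid and semen pools of Experiment 2 did not overlap either, whereas those of Experiment 1 did.

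**Figure D3:**
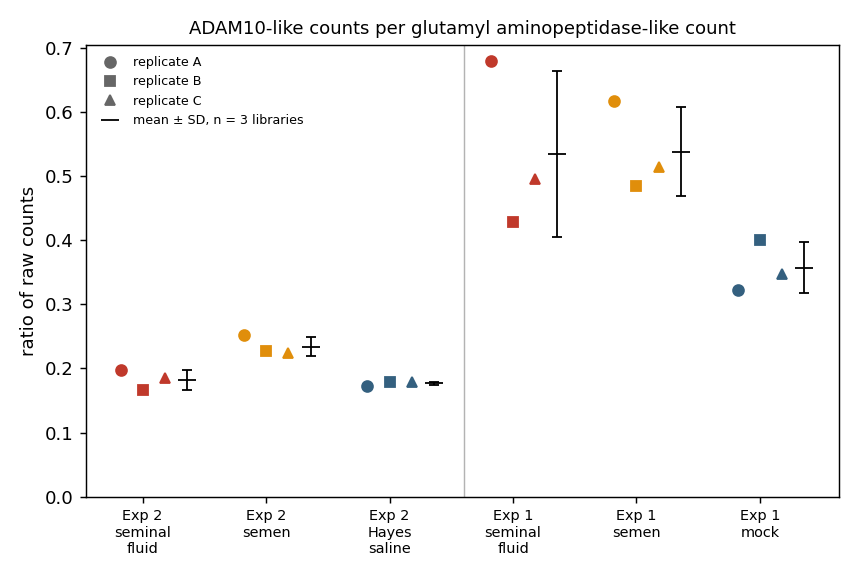
Raw counts of ADAM10-like divided by those of glutamyl aminopeptidase-like in each library (vertical axis), with the mean ± SD of 3 libraries per group. All libraries of Experiment 2 lie between 0.166 and 0.252, and all libraries of Experiment 1 lie between 0.323 and 0.679.

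Across the 18 libraries, the log2 CPM of the 2 genes had a Pearson correlation of 0.87 after the mean of each experiment was subtracted. It was -0.12 after the mean of each group was subtracted, so the positive value was seen between inseminated and control pools and not among pools of the same group. Without any subtraction it was 0.16. The 3 values were 0.88, -0.36 and 0.21 without replicate C of seminal fluid in Experiment 2. Both genes were chosen for being higher than controls in each comparison, so a positive value after subtraction of experiment means follows from that choice. The libraries also share the scaling factors used for both genes, and the relation is a description over libraries that form separate clusters.

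**Figure D4:**
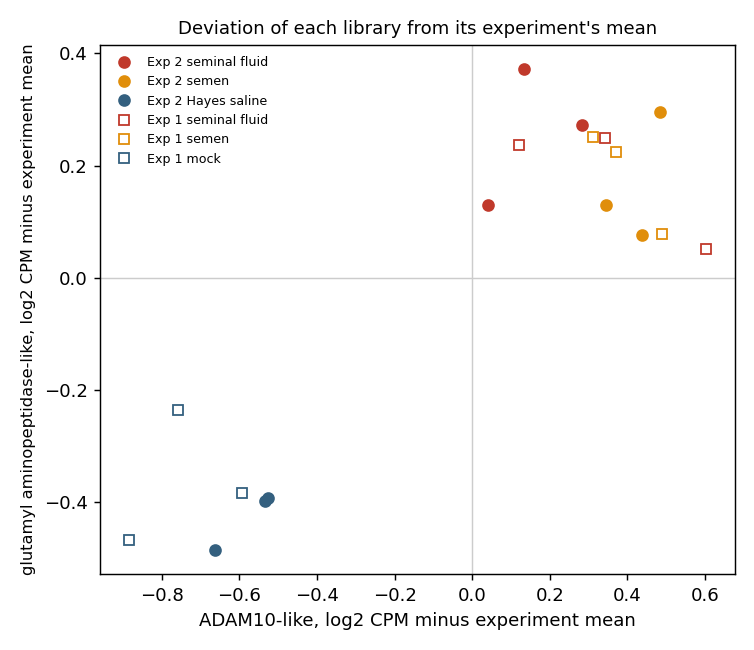
Log2 CPM of ADAM10-like (horizontal axis) and glutamyl aminopeptidase-like (vertical axis) in each library, minus the mean of its experiment. The 12 inseminated pools lie above 0 for both genes and the 6 control pools below 0, and the correlation is 0.87 here but -0.12 once group means are subtracted. The separation of inseminated from control pools follows from how the genes were chosen.

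Of all 12051 other genes, glutamyl aminopeptidase-like ranked 35 by likeness to ADAM10-like, measured as the correlation over 18 libraries after subtraction of experiment means. The 5 genes most like ADAM10-like were chaoptin (r = 0.97), a photoreceptor surface protein in flies, the tyrosine kinase Src64B (r = 0.96), cell adhesion molecule 3-like (r = 0.95), Actin (a) (r = 0.95), a cytoskeletal protein, and Tret1 (r = 0.95), a trehalose transporter. Those most like glutamyl aminopeptidase-like were D-ETS-4 (r = 0.98), a DNA-binding protein of the ETS family, the uncharacterized protein LOC727647 (r = 0.97), Bardet-Biedl syndrome 2 homolog (r = 0.96), whose counterparts act at cilia, Hemicentin-1-like (r = 0.96), an extracellular matrix protein, and prohormone-3 (r = 0.96), a peptide precursor. All 10 are among the 37 genes chosen by the study on the same samples, so the likeness is not independent of how the members were chosen.

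Among proteins of the kind that ADAM10 sheds in other animals, 2 gene models could be paired with a name, and both are annotated as neuroligin-4, X-linked-like, a postsynaptic adhesion protein. The study chose both on these samples. In each of the 4 comparisons, 3 of 3 inseminated pools were above 3 of 3 controls for both, which held for 6.34% to 8.28% of all genes. In each comparison edgeR and limma-voom called 0 of 2 and DESeq2 called 2 of 2. DESeq2 called higher 1.3% of all genes in seminal fluid against Hayes saline, 2.2% in semen against Hayes saline, 1.64% in seminal fluid against mock insemination and 0.595% in semen against mock insemination. Because both genes were chosen on these comparisons, the counts and the adjusted p values below are a description and add no support. GB42885 averaged 9.32 ± 0.724 CPM with seminal fluid and 8.21 ± 1.12 CPM with semen, against 4.82 ± 1.47 CPM with Hayes saline (SD, n = 3 pools each). Its log2 fold changes against controls were between 0.78 and 0.96 (adjusted p between 0.149 and 0.231, edgeR). Those of GB42886 were between 0.73 and 0.86 (adjusted p between 0.145 and 0.394, edgeR).

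A further gene of the 37 carries a metallopeptidase term in the annotation, thrombospondin type-1 domain-containing 4-like (GB49726), named here after its values were seen. Its level was 53.1 ± 4.20 CPM with seminal fluid and 57.1 ± 7.67 CPM with semen, against 80.3 ± 3.91 CPM with Hayes saline. In Experiment 1 it was 51.0 ± 5.16 CPM with seminal fluid and 53.7 ± 7.08 CPM with semen, against 83.7 ± 5.57 CPM after mock insemination. The means of inseminated groups thus lay below those of controls, on the side opposite to ADAM10-like and glutamyl aminopeptidase-like, with log2 fold changes between -0.70 and -0.48. The study chose this gene on the same comparisons, so the values are a description.

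Photoreceptor transcripts were the only cell type list whose genes could be paired with names, and none of its 6 genes (ninaC, TRP, inaD, myosin-IIIb, norpA and chaoptin) was at 0 in a group. Called higher against controls were 2 of 6 in seminal fluid against Hayes saline (0.353% of all genes), 2 of 6 in semen against Hayes saline (0.303%), 2 of 6 in seminal fluid against mock insemination (0.153%) and 1 of 6 in semen against mock insemination (0.128%). The calls were norpA, a phospholipase, and chaoptin, which like the members were chosen on these samples. The median log2 fold changes of the 6 genes were 0.41, -0.22, 0.22 and 0.35 in this order of comparisons. In semen against Hayes saline the values were -0.35 for ninaC, -0.40 for TRP, -0.41 for myosin-IIIb and -0.097 for inaD, none of them called. Those of norpA and chaoptin were 0.51 and 1.90. All semen pools lay below all Hayes saline pools for ninaC, TRP and myosin-IIIb and above them for norpA and chaoptin, whereas inaD overlapped. The share of all genes that lay lower in this way was not counted.

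The summed level of all 6 photoreceptor genes includes norpA and chaoptin, which were chosen on these comparisons. It was 570.3 to 770.3 CPM with seminal fluid and 548.1 to 555.5 CPM with semen, against 425.3 to 521.1 CPM with Hayes saline. In Experiment 1 it was 671.3 to 750.6 CPM with seminal fluid and 692.9 to 738.0 CPM with semen, against 504.7 to 579.8 CPM after mock insemination. Every inseminated pool was thus above every control pool of its experiment in this sum. Within it, norpA alone averaged 337.9 CPM with semen in Experiment 2, so the choice of that gene weighs on this result. The summed level of the 4 genes other than norpA and chaoptin was 229.1 to 432.9 CPM with seminal fluid and 202.4 to 215.2 CPM with semen, against 204.7 to 270.0 CPM with Hayes saline. In Experiment 1 it was 272.2 to 345.5 CPM with seminal fluid and 276.2 to 343.3 CPM with semen, against 242.7 to 304.5 CPM after mock insemination. Inseminated and control pools overlapped in the sum of these 4 genes in all 4 comparisons. The part of photoreceptor content in the results was not tested.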

How the data were processed

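The deposited values are counts per gene model. To make them, the authors trimmed and aligned reads of 120 bp with Trimmomatic, SortMeRNA, STAR 2.4.2a, Apis mellifera assembly 4.5 and htseq-count, and did not normalize. The libraries were made with a stranded kit, but the strand setting of the counting is not given in the sources used here. It is therefore not known whether reads of overlapping or antisense genes were kept apart. Reads aligned to several places (5.69% to 8.21% of each file) were not counted by the authors, and 68.8% to 72.1% were assigned to genes. The 5 totals of unassigned reads were left out.

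Counts were scaled by TMM and tested with edgeR 4.0.16 (quasi-likelihood, two-sided) in R 4.3.3, in fits of 9 libraries per experiment (11761 genes in Experiment 1, 11899 in Experiment 2) or of 18 libraries between experiments. A gene needed 10 counts or more in 3 or more libraries of the fit. P values were adjusted by the Benjamini-Hochberg method over all genes of the fit, and genes were called under 0.1, the false discovery rate of 10% that the authors used. Log2 CPM used a prior count of 2. Alternatives were DESeq2 1.42.0, limma 3.58.1 (voom), other scalings, filters and fits, a replicate block, and each library left out. Library size alone was added after the data were seen. The calculations were tested on simulated data.

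The members and lists were chosen with earlier results of these data known. By rule, the text names the 2 members, list genes that were called or define a list, and the 5 genes most like each member. Names came only from the study's annotation. Lists of other ADAM or M1 enzymes, other metallopeptidases, Notch pathway, tetraspanin, inhibitor, gland, fat body, muscle, blood cell, glial and neuronal genes could be paired with no further names and were not analysed here. The brain label was thus not checked against neuronal markers. Replicates differed by more than sampling noise (chi-square per gene of 18.4 or more). Same-lettered replicates deviated together little or not at all (correlations from -0.20 to 0.11), so letters were not used as pairs. In seminal fluid against semen of Experiment 2 the correlations were 0.097, 0.099 and 0.11. Each seminal fluid library there correlated best with the semen library of its own letter. With a replicate block, ADAM10-like had an adjusted p of 0.218 in that comparison (edgeR).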

Additional observations from a re-analysis of the deposited data

How the results depend on the processing

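Of 264 values of the 2 genes under other settings, 251 kept their direction and their side of the threshold, or, against controls, moved by less than the spread between pools. The replicate block changed no call of either gene. With it, the log2 fold change of ADAM10-like for seminal fluid against semen was -0.29 in Experiment 2 and -0.015 in Experiment 1, and 6 of 18 libraries correlated best with their own letter. The call of ADAM10-like between controls was lost with library size alone (-0.13), which shifted all genes (median by 0.50) and left its value relative to the median at -0.67. In seminal fluid against semen in Experiment 2, ADAM10-like was called by DESeq2 (-0.29) and in a fit of only the groups compared (-0.29). Its adjusted p was between 0.0457 and 0.426 over the other settings and between 0.149 and 0.563 with a library left out, where its log2 fold change was between -0.35 and -0.23. In Experiment 1 the same contrast was near 0 and changed sign for ADAM10-like with RLE size factors and DESeq2 (0.0031 in each), and for glutamyl aminopeptidase-like in a fit of all 18 libraries (-0.0042) and with library size alone (-0.066). With a library left out it was between -0.12 and 0.086 for ADAM10-like and between -0.044 and 0.088 for glutamyl aminopeptidase-like. The correlation of the genes was -0.12 with group means subtracted. The log2 difference of the count ratio was between -1.42 and -1.29 in inseminated pools of Experiment 2 against Experiment 1 with a library left out.

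The numbers of called genes were less stable than the values of the 2 genes. Brackets here hold the counts of the main edgeR fit, which are not the counts that the study published from DESeq2. Over the settings that kept all libraries, calls numbered 17 to 276 for seminal fluid against Hayes saline (51). They numbered 21 to 330 for semen against Hayes saline (39) and 4 to 619 for seminal fluid against mock insemination (19). For semen against mock insemination they numbered 5 to 94 (15), and for seminal fluid against semen in Experiment 2 they numbered 0 to 1201 (1). With a library left out they were 16 to 1074, 9 to 97, 4 to 18, 3 to 6 and 0 to 92 in the same order, with 1074 without replicate C of Hayes saline. The share of calls that were higher in Experiment 2 was 84.6% with library size alone against 52.2% with TMM in inseminated pools, and 86.7% against 52.5% in controls. The causes were not tested. For the 2 genes, counting error was at most 2.59% of a count and the SD between pools of a group was 3.60% to 16.7% of the mean.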
